A study of Mus musculus with 15 samples.

Results

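The genes of chromatin remodelling and histone demethylase proteins are described here by the marks that lie at their promoters and along their bodies in immature T cells. Members are the mouse protein-coding genes whose symbol begins with Smarc, Arid or Kdm, together with Chd1 to Chd9. The rule gave 48 genes, of which 47 lie among the 22350 protein-coding genes of chromosomes 1 to 19 and X, and Kdm5d lies on the Y chromosome. Remodellers use the energy of ATP to slide, eject or exchange nucleosomes, and the Smarc and Chd genes encode their motor proteins and subunits. Most Kdm genes encode enzymes that take methyl groups off lysines of histone tails, and the Arid genes encode proteins with a DNA-binding fold that serve in remodelling complexes or in other regulators. In mouse thymocytes SWI/SNF and Chd4 are known for their part in the expression of the Cd4 coreceptor gene.

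All cells were wild type CD4+CD8+ double-positive thymocytes without CD69 at the surface, taken from the thymus of C57BL/6 mice, whose age the labels do not give. ChIP-seq was made for H3K27ac, an acetylation of active promoters and enhancers (2 libraries), for Rad21, a subunit of the cohesin ring (2 libraries), and for CTCF, a DNA-binding protein at which cohesin often halts (1 library). The series holds 15 samples, of which 8 Hi-C and 2 input samples were not analysed here. The labels do not say whether the replicates came from separate animals, so their spread may be technical.

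A promoter is the sequence within 2000 bp of an annotated transcription start site (TSS), and the gene body is the rest of the gene. A Rad21 or H3K27ac region is called shared where peaks of both replicates merge, and a Rad21 region is CTCF-free where no CTCF peak overlaps it by 1 bp. A shared region spans all of its merged peaks, so parts of it can lie under 1 replicate only. Genes with a shared H3K27ac region at a promoter are called active. Fold is the enrichment of a peak over local background, the authors' own value per peak, used to rank peaks within a list. Since the lists hold no read counts, the depth behind a fold is unknown. The lists held 38700 and 24765 H3K27ac peaks, 38430 and 48462 Rad21 peaks and 35345 CTCF peaks, and gave 16230 shared H3K27ac and 30959 shared Rad21 regions, of which 10559 were CTCF-free. Of the double-positive thymocyte markers Cd4, Cd8a, Cd8b1, Cd3e, Rag1, Rag2 and Ptcra, 7 of 7 had promoter H3K27ac, against 0 of 3 myeloid genes and 0 of 3 neuronal genes. Members were picked by name, so their counts are set beside those of the other genes as a description, with no test.

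Sequences under promoter CTCF peaks show how close the sites of the members come to the CTCF consensus. Shown are the highest peaks of 7 of the active members with the highest promoter CTCF folds, and that of Smarca5, a close match without shared Rad21. The Smarca5 peak is weak, with a fold of 3.67 and a −log10 q of 1.25, a q above 0.05. Kdm3b, which had the highest promoter peak (fold 52.6), differed from the consensus at 4 positions and is given without its sequence. Each line gives 53 bases of mm9 on the strand of the match, with the 13 bases that match the CTCF core consensus best in capitals. Chd9 (chr8:93352683-93352735, plus strand), Smarcc2 (chr10:127896220-127896272, plus strand), Kdm2b (chr5:123463748-123463800, minus strand) and Smarca5 (chr8:83234733-83234785, minus strand) differed from the consensus at 1 position, and Arid3a (chr10:79388219-79388271, plus strand) at 2. Arid2 (chr15:96117265-96117317, plus strand) and Kdm1a (chr4:136158738-136158790, minus strand) differed at 3 and Smarcd1 (chr15:99532462-99532514, plus strand) at 4, more than the 2 mismatches allowed for a motif here.
Chd9: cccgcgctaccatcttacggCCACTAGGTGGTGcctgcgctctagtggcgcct
Smarcc2: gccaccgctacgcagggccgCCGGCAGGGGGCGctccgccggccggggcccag
Kdm2b: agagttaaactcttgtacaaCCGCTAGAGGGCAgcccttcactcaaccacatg
Smarca5: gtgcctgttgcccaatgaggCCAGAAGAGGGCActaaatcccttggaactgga
Arid3a: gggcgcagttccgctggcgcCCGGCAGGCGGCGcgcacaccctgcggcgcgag
Arid2: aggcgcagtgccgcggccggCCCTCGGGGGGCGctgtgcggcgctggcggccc
Kdm1a: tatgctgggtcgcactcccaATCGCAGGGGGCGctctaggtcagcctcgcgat
Smarcd1: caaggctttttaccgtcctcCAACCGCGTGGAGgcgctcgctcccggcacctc
All 8 lay under a CTCF peak. A shared Rad21 region covered 6 of the 8 peaks, and those of Smarca5 and Smarcd1 had none.

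A second set shows CTCF-free Rad21, the commoner kind at these promoters. The windows reach 50 bases to each side of the Rad21 summit and are written in the direction of the gene. They are the highest window per gene among the first 10 promoter regions by the worse rank of both replicates, leaving out regions over UTRs, and the first 2 of the gene bodies. The short motifs searched on both strands were CCGGAAG (Ets), TGTGGTT (Runx), CAGCTG (E-box) and CTTTGAA (Tcf), and matches are in capitals. The promoter windows are Smarcd2 (chr11:106130469-106130569, minus strand, folds 13.2 and 17.0), Arid1b (chr17:4994358-4994458, plus strand, 13.3 and 11.7), Chd2 (chr7:80682940-80683040, minus strand, 11.2 and 15.2), Chd1 (chr17:15843047-15843147, plus strand, 7.25 and 11.7) and Kdm2b (chr5:123464823-123464923, minus strand, 8.92 and 9.05). From introns come Chd9 (chr8:93433163-93433263, plus strand, 12.3 and 13.4) and Arid1b (chr17:5165388-5165488, plus strand, 9.43 and 10.9). The Chd9 region also lies at the promoter of another gene, Gm6658.
Smarcd2 promoter: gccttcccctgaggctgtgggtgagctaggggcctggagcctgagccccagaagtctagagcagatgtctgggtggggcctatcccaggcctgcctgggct
Arid1b promoter: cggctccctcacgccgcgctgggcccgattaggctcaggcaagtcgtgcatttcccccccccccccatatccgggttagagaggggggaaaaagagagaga
Chd2 promoter: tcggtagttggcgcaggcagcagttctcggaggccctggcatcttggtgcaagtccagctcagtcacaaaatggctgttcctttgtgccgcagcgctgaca
Chd1 promoter: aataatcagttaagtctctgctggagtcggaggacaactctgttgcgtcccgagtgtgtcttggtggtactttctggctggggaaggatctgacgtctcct
Kdm2b promoter: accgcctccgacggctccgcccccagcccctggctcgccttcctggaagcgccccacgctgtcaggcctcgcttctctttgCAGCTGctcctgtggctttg
Chd9 intron: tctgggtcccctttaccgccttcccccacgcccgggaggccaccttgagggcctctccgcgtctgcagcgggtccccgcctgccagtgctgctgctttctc
Arid1b intron: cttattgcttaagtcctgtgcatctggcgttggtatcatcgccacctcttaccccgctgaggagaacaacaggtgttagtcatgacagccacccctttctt
The best CTCF match in these windows had 3 or 4 mismatches, and 1 of the 7 windows, at Kdm2b, held one of the short motifs, an E-box.

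Most members were active. Of the 47 measured, 40 (85.1%) had a shared H3K27ac region at a promoter, against 9228 of 22303 other protein-coding genes (41.4%). Each H3K27ac replicate by itself marked 40 and 41 of the 47. The regions were wide, with a median of 2560.5 bp for the widest promoter region of a member (quartiles 1927.8 and 4463.2 bp, n = 40), against 1692 bp in other active genes (quartiles 1116.8 and 2754.2 bp, n = 9228). Among the active members 18 (45%) were above 2761 bp, the upper quartile of all active genes, against 24.9% of the other active genes. The widest region was picked over all TSSs of a gene, and members have a median of 5 TSSs against 3. Neither the widths nor the active share was weighted to TSS number or gene length. The widest was that of Arid2, at 17440 bp, which ranked 69 among 9268 active genes, followed by Arid1b at 9916 bp, Arid1a at 9590 bp, Arid3b at 6567 bp and Chd2 at 6030 bp. These widths are spans of merged peaks. At Arid2 the replicate 1 peak ran from -14.65 to 2.787 kb of the gene start, and the replicate 2 peak from -3.721 to 2.135 kb. At Arid1b replicate 2 peaks extended both ends of a replicate 1 peak from 38.95 to 47.66 kb. The narrowest were Smarcal1 at 760 bp, Smarcb1 at 1010 bp and Smarcad1 at 1202 bp. The size of the width depends on H3K27ac replicate 1, whose peaks had a median of 1076 bp where those of replicate 2 had 733 bp. With replicate 2 alone the median was 1652 bp over 41 members, against 1050 bp over 9575 other active genes, and with replicate 1 alone 2552.5 bp, against 1555 bp.

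**Figure D1:**
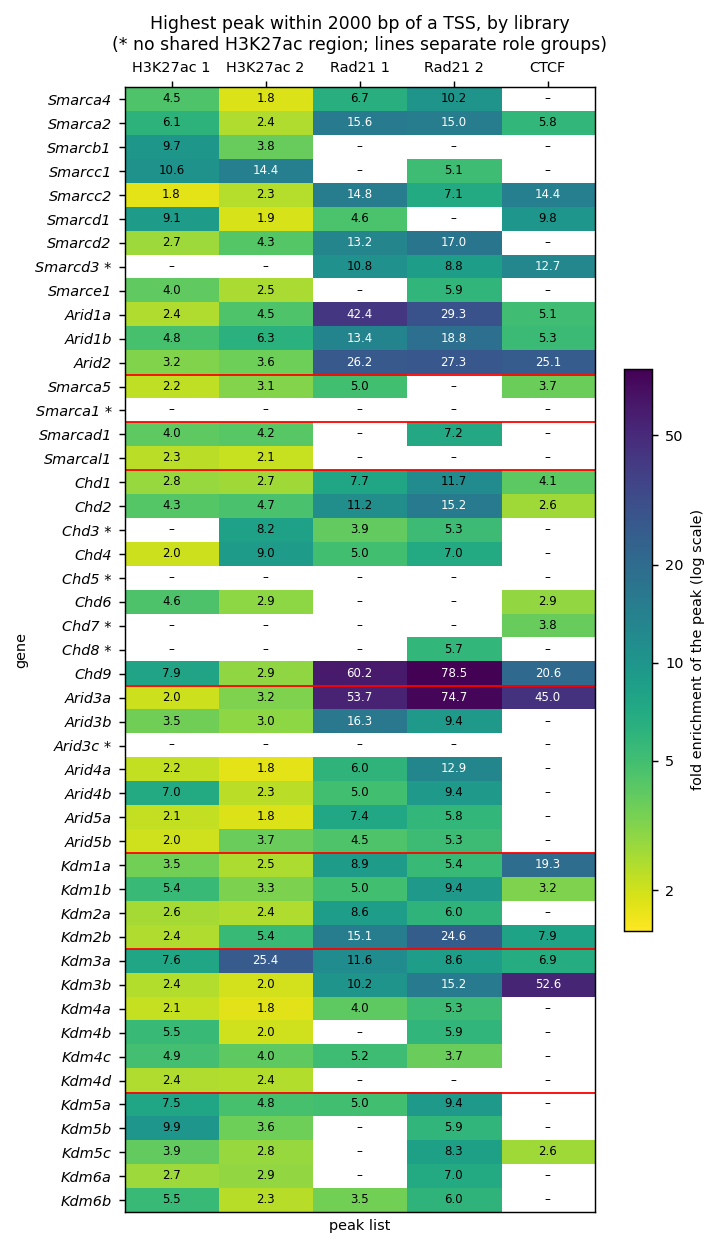
Fold enrichment of the highest peak within 2000 bp of a TSS for each of the 47 members (down the page, by role group) in each of the 5 peak lists (across), on a log colour scale, with a dash where the list has no peak. The Rad21 columns are darkest at Chd9, Arid3a and Arid1a, the CTCF column is filled for 20 genes, and the H3K27ac columns have a value in both replicates for 40.

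The 7 members without shared promoter H3K27ac were Chd3, Chd5, Chd7, Chd8, Smarca1, Smarcd3 and Arid3c. Chd5 and Smarca1, which encode a NuRD motor of the nervous system and the ISWI motor Snf2l, and Arid3c had no promoter peak in any of the 5 lists. Chd7, the gene of CHARGE syndrome in humans, had a promoter CTCF peak of fold 3.77 and no other promoter peak. Its body held 2 shared Rad21 regions, 1 of them CTCF-free, and 2 CTCF peaks. Chd8, which encodes a CTCF-interacting remodeller, had a Rad21 peak of fold 5.73 in replicate 2 only. Smarcd3, an alternative SWI/SNF subunit of muscle and heart, lacked H3K27ac in both replicates yet had a CTCF peak of fold 12.7 with shared Rad21 at folds of 10.8 and 8.78. Chd3 had an H3K27ac peak of fold 8.17 in replicate 2 and none in replicate 1, and its Rad21 peaks of folds 3.91 and 5.27 did not merge into a shared region. The plot of folds by library shows these 7 with an asterisk, and apart from Chd3 they are blank in both H3K27ac columns.

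Promoter Rad21 was about as frequent among active members as among other active genes. A shared region was present at 25 of 40 (62.5%), against 61% of 9228. Single replicates gave 29 of 40 (72.5%) against 69.6% for replicate 1, and 34 of 40 (85%) against 83.3% for replicate 2. A promoter CTCF peak was present at 18 of 40 (45%), against 43.2%. CTCF-free promoter Rad21 was present at 21 of 40 (52.5%), against 38%, a difference of 14.5 percentage points. Members are long and have many start sites, with a median length of 70175.5 bp against 22687 bp and a median of 5 annotated TSSs against 3. Other genes weighted to the length classes of the members had CTCF-free promoter Rad21 in 42.9%, and weighted to their number of TSSs in 38.7%. The difference was 7.26 points with Rad21 replicate 2 alone and 3.02 points with Rad21 and CTCF peaks restricted to a −log10 q of at least 5.

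By kind of Rad21, the 40 active members fell into 4 sets. At 12 members every shared promoter region was CTCF-free (30%), a set that made up 27.2% of other active genes. Another 9 (22.5%) had CTCF-free and CTCF-bound regions side by side, against 10.8% of other genes, and 4 (10%), Chd9, Kdm1a, Kdm3a and Kdm3b, had CTCF-bound regions only, against 23.1%. The remaining 15 (37.5%) had no shared region, against 39.0%. These shares were not weighted to TSS number or gene length, and members have a median of 5 TSSs against 3. The sets also rest in part on weak CTCF peaks, such as that of Kdm1b (fold 3.22, −log10 q 0.186).

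**Figure D2:**
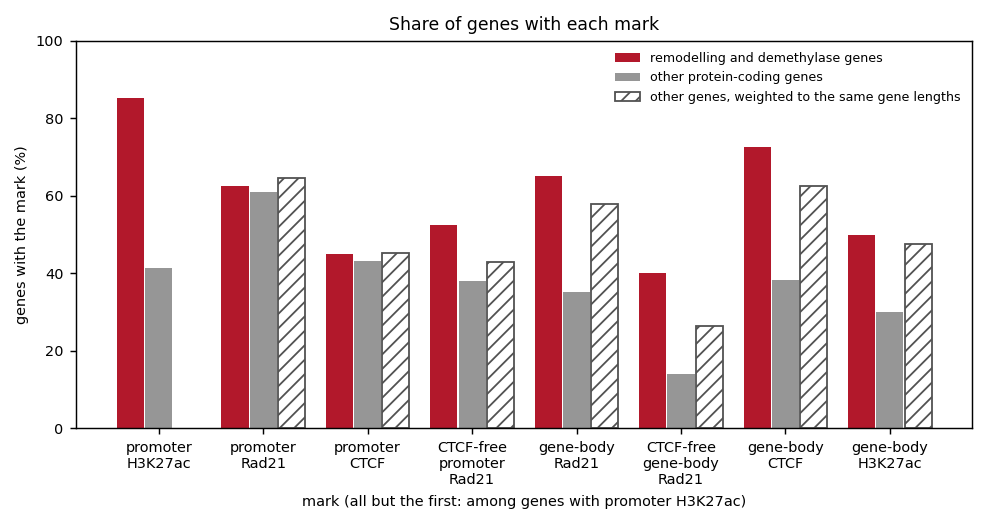
Share of genes (vertical axis, percent) with each mark at the promoter or in the gene body, for the members (red), other protein-coding genes (grey) and other genes weighted to the lengths of the members (hatched, not computed for promoter H3K27ac). All marks but promoter H3K27ac are counted among genes with promoter H3K27ac. The red and grey bars are level for promoter Rad21 (62.5% and 61%) and promoter CTCF (45% and 43.2%) and farthest apart for promoter H3K27ac (85.1% and 41.4%), and in the gene body the hatched bars lie between the red and the grey ones.

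The SWI/SNF complex is built of a motor, a core and exchangeable subunits, and 11 of its 12 members were active. Shared promoter Rad21 was present at 7 of the 11, CTCF at 6 and CTCF-free Rad21 at 7. Other active genes had these in 61%, 43.2% and 38%. Smarca4, the gene of the motor Brg1 (chromosome 9, 21420613 to 21508674), had a CTCF-free region 63 bp from a TSS with folds of 6.65 and 10.2 and no CTCF peak. Smarca2, the gene of the alternative motor Brm, had folds of 15.6 and 15.04 at an internal promoter with a CTCF peak of 5.78, and a CTCF-free region at its 5′ end with 10.1 and 4.55. Of the core subunits, Smarcb1 had shared H3K27ac at its gene start (folds 6.65 and 3.78) and no promoter Rad21 or CTCF peak in any list. Its highest H3K27ac peak (9.69) lay farther downstream, in replicate 1 only. Smarcc1, whose product is the scaffold known as Srg3 in mouse thymocytes, had promoter Rad21 in replicate 2 only (5.12), while its paralog Smarcc2 had shared Rad21 with 14.8 and 7.06 over a CTCF peak of 14.4.

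The exchangeable subunits held the highest promoter Rad21 of the complex. Arid1a, which defines the canonical BAF form (chromosome 4, 133234923 to 133312684), had folds of 42.4 and 29.3 in an intron near its start and 21.0 and 26.4 at its 5′ end. These 2 regions overlapped CTCF peaks of only 2.27 to 5.11, and the 4 CTCF peaks of its promoters had 3 or 4 mismatches to the CTCF consensus. Arid2, which defines the PBAF form (chromosome 15, 96117953 to 96235894), had 5 shared regions, 4 of them CTCF-free, and its highest folds of 26.2 and 27.3 lay over a CTCF peak of 25.1. Arid1b had 13.4 and 18.8, and Smarcd2, a subunit gene with 9 TSSs, had 13.2 and 17.0 without CTCF. Smarcd1 carried a CTCF peak of 9.84 and promoter Rad21 in replicate 1 only (4.64), and Smarce1, the gene of an HMG-box subunit, had promoter Rad21 in replicate 2 only (5.85). Within the complex the values thus ran between Smarcb1, without a peak, and Arid1a. The paralogs Smarcc1 and Smarcc2 differed mainly in Rad21 replicate 1 (no peak against 14.8), and both had a peak in replicate 2 (5.12 and 7.06).

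Of the 4 ISWI and other SNF2-type genes 3 were active, and none of these 3 had shared promoter Rad21, which 61% of other active genes had. Smarca5, the gene of the ISWI motor Snf2h, had a CTCF peak of 3.67 at an internal promoter and a promoter Rad21 peak in replicate 1 only (5.02). Smarcad1, a remodeller gene linked to DNA end resection, had promoter Rad21 in replicate 2 only (7.21) and a CTCF-free region in an intron of its body with folds of 5.73 and 18.2, the highest replicate 2 fold among CTCF-free body regions of active members. Smarcal1, the gene of an annealing helicase of stalled forks, had no promoter Rad21 peak.

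Of 9 CHD genes 5 were active, and 4 of those had shared promoter Rad21, against 61% of other active genes. Chd9 (chromosome 8, 93352734 to 93578407) had the highest values of all members, with folds of 60.3 and 78.5 at 20 bp from its TSS over a CTCF peak of 20.6, and ranked 32 and 16 among 9268 active genes. Chd1, which binds methylated H3 at active promoters, had 3 regions with at most 7.70 and 11.7, and Chd2 had 2 CTCF-free regions with 11.2 and 15.2 at the higher one. Chd4, the NuRD motor gene known for its role at Cd4 in mouse thymocytes, had a CTCF-free region with 5.02 and 5.27. Chd6 had H3K27ac (highest folds 4.56 and 2.94 over its promoters) and a CTCF peak of 2.88 but no promoter Rad21 peak in either replicate. The active CHD genes therefore spanned the full range seen among members, and the replicates gave the same order for Chd9, Chd2, Chd1 and Chd4.

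Outside SWI/SNF, 6 of 7 ARID genes were active and 5 had shared promoter Rad21, all 5 with a CTCF-free region. Other active genes had shared promoter Rad21 in 61% and a CTCF-free region in 38%. Arid3a (chromosome 10, 79389788 to 79417763), the gene of the B cell factor Bright, had 53.7 and 74.7 over a CTCF peak of 45.0 whose summit lay at -1568 bp from the TSS, with 2 CTCF-free regions nearer to its TSSs. Arid3b, its paralog, had 16.3 and 9.45 without CTCF. Arid4a and Arid4b encode subunits of the Sin3 corepressor complex. Arid4b had a CTCF-free region with 3.70 and 9.38 that it shares with the divergent gene Ggps1, and Arid4a had peaks of 6.01 and 12.9 that did not merge. Arid5a, the gene of an RNA-binding protein of cytokine transcripts, and Arid5b, a leukaemia risk gene in humans, were lower, with 7.44 and 5.79, and 4.46 and 4.68. Arid3a was the only ARID gene of this group with a promoter CTCF peak.

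The flavin-dependent demethylase genes Kdm1a and Kdm1b, and Kdm2a and Kdm2b, whose products bind unmethylated CpG, were all active. Kdm1a, the gene of Lsd1, had Rad21 folds of 8.93 and 5.38 over a CTCF peak of 19.3 at 115 bp from a TSS. Kdm1b had a CTCF-free region of 3.10 and 5.85 and a CTCF-bound one of 5.02 and 9.37, both also at the promoter of Tpmt. Kdm2b, which brings a variant Polycomb complex to CpG islands, had 22 TSSs and 9 shared promoter regions, 6 of them CTCF-free, and ranked 3 among active genes by that number. Its highest folds of 15.1 and 24.6 lay over a CTCF peak of 7.91, in a stretch that is also the promoter of Orai1. Kdm2a, with 3 TSSs, had peaks of 8.59 and 6.02 that did not merge. A number of regions counted over many start sites is thus not a level at a single promoter.

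Among the H3K9 demethylase genes of the KDM3 and KDM4 families, all 6 were active. Kdm3b had the highest promoter CTCF peak of the members, with a fold of 52.6, and Rad21 folds of 10.2 and 15.2. Kdm3a, a gene induced by low oxygen, had 11.6 and 8.59 over a CTCF peak of 6.87, and an H3K27ac fold of 25.4 in replicate 2 against 7.63 in replicate 1. Kdm4a and Kdm4c were CTCF-free and low, with 4.03 and 5.27, and 5.19 and 3.70. Kdm4b had promoter Rad21 in replicate 2 only (5.85). Kdm4d, known for its expression in testis, had H3K27ac of 2.42 and 2.37 over a divergent promoter shared with Cwc15 and no Rad21 or CTCF peak.

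The KDM5 genes encode H3K4 demethylases and the KDM6 genes H3K27 demethylases, the enzymes that clear the Polycomb mark. All 5 on the autosomes and X were active. Kdm5a, whose promoter is shared with Ccdc77, had a CTCF-free region of 5.02 and 9.36, and Kdm6b, the gene of Jmjd3, one of 3.48 and 6.03. Kdm5b had promoter Rad21 in replicate 2 only (5.85). The X-linked genes Kdm5c and Kdm6a, both known to escape X inactivation, had H3K27ac in both replicates (3.92 and 2.79, and 2.67 and 2.87) and promoter Rad21 in replicate 2 only (8.29 and 7.03), and Kdm5c also a CTCF peak of 2.64. Kdm5d, the Y-linked copy (chromosome Y, 234231 to 280254), had an H3K27ac peak over its TSS in replicate 1 (233887 to 234405, fold 2.39) and none in replicate 2. That list held 4 peaks on the Y chromosome and the other lists none.

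The members without shared promoter Rad21 were mostly cases in which 1 replicate had a peak. Of the 15, only Chd6, Kdm4d, Smarcal1 and Smarcb1 lacked a peak in both replicates (10%), against 12.2% of other active genes. In 7 of the other 11 the peak was in replicate 2 only, in 2 it was in replicate 1 only, and in Arid4a and Kdm2a each replicate had peaks at different places. Rad21 replicate 2 is the longer list.

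**Figure D3:**
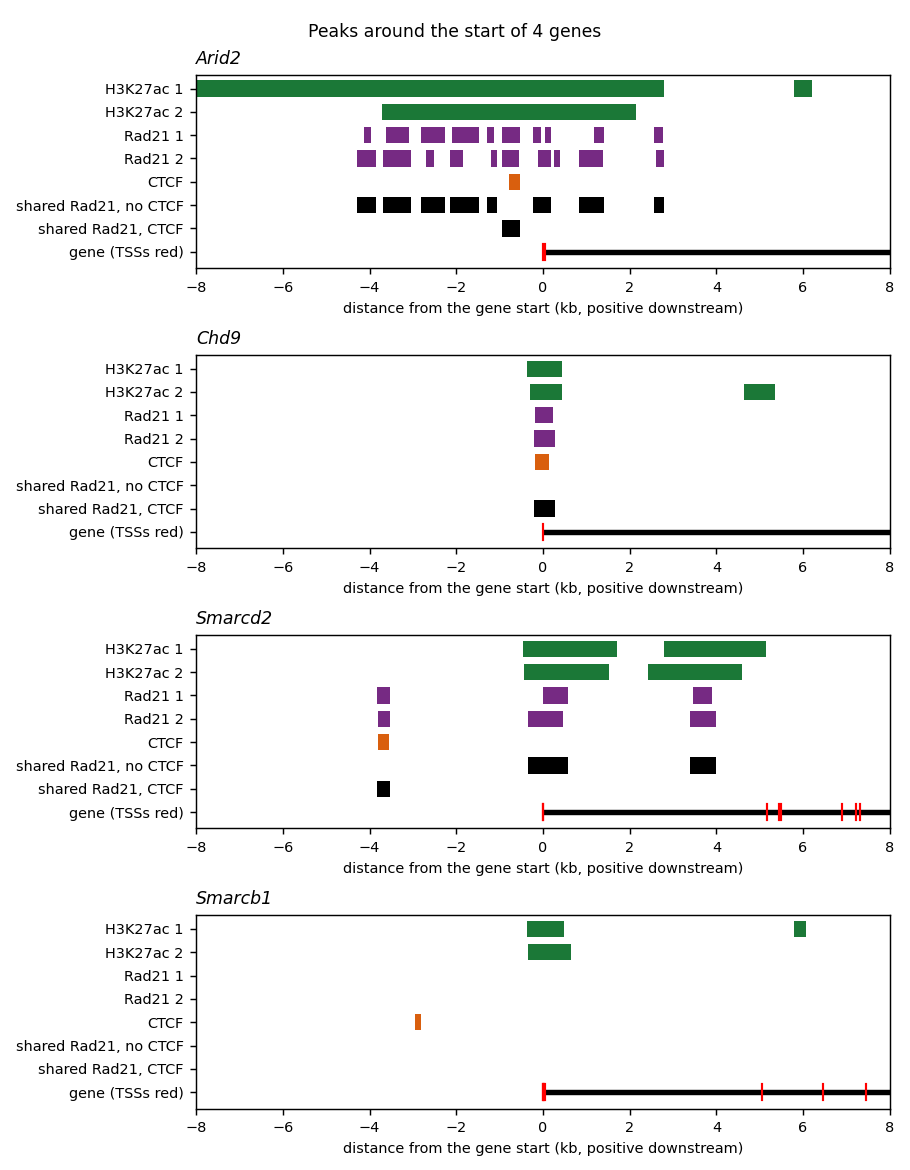
Peaks within 8 kb of the gene start (horizontal axis, kb, positive downstream) of Arid2, Chd9, Smarcd2 and Smarcb1, with 1 track for each list and for shared Rad21 regions without and with CTCF, and TSSs in red. Arid2 has a row of CTCF-free regions under wide H3K27ac, Chd9 a single CTCF-bound region at its TSS, Smarcd2 CTCF-free regions under both H3K27ac blocks and a CTCF-bound one upstream of its promoter, and Smarcb1 H3K27ac without Rad21, with a CTCF peak (fold 2.09) upstream of its promoter.

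CTCF-free regions had lower median folds than CTCF-bound ones in members and in other genes. At promoters the 33 CTCF-free regions had median folds of 5.78 and 7.16 (replicates 1 and 2) and the 19 CTCF-bound ones 11.6 and 13.6. In other active genes the medians were 5.66 and 6.90 over 4099 CTCF-free regions, and 10.8 and 12.8 over 3427 CTCF-bound ones. Some regions count as CTCF-bound through a weak CTCF peak only. The Arid1a region of 42.4 and 29.3 overlaps one of fold 2.27 and −log10 q 0. The values per class thus depend on how deep the CTCF list reaches. Of the 33, 32 overlapped a shared H3K27ac region and the median distance to a TSS was 237 bp. Both values follow in part from the selection, which took regions near TSSs of genes with promoter H3K27ac. The CTCF-bound regions of members, selected in the same way, had 15 of 19 and 435 bp. Taken per gene, the highest shared promoter Rad21 had a median fold of 10.2 in replicate 1 and 9.45 in replicate 2 over the 25 members, against 7.81 and 9.41 over 5633 other active genes. The highest CTCF-free region had medians of 6.61 and 8.20 over 21 members, against 6.04 and 7.25 over 3506 other genes. The replicates thus gave a gap of different size, and in replicate 2 the medians for all promoter Rad21 were nearly level.

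Marks in the gene body were present in larger shares of active members than of other active genes, and gene length moved with this. Rad21 lay in the body of 26 of 40 (65%), against 35.2%, where other genes weighted to the same lengths gave 57.8%. A CTCF peak was present in 29 (72.5%), against 38.2% and, weighted, 62.6%. H3K27ac was present in 20 (50%), against 30.1% and, weighted, 47.6%. The H3K27ac counts include promoter regions that run on into the body, such as that of Arid2, so they partly restate promoter width. CTCF-free Rad21 was present in 16 (40%), against 14.1% and, weighted, 26.5%. In the longest of 5 length classes of active genes, 12 of 22 members (54.5%) had a CTCF-free region in the body, against 37.9% of 1832 others. For all 4 marks of the body the weighted share lay between the share of the members and the plain share of the other genes.

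Arid1b weighed heavily in the totals over all bodies. The 40 active members held 87 shared Rad21 regions in 2.94 Mb of gene body, 29.6 per Mb, against 20.4 per Mb in other active genes, and 35 CTCF-free ones, 11.9 per Mb, against 7.38 per Mb. Without Arid1b the members had 22.7 and 7.69 per Mb. In the longest of the 5 classes the members had 12.3 CTCF-free regions per Mb, or 7.35 without Arid1b, against 7.44 in the others. The CTCF-free regions were intronic in 34 of 35 cases and overlapped shared H3K27ac in 26 (74.3%), against 65.6% of the 2596 in other active genes. Without Arid1b the overlap was 14 of 20 (70%). In the longest class without Arid1b it was 10 of 16 (62.5%), against 65.6% of 1800 in the others, so the gap has no stable direction. CTCF-bound body regions of members overlapped shared H3K27ac in 12 of 52 (23.1%). Median folds in the body were 5.73 and 7.50 for the CTCF-free regions of members and 11.2 and 12.9 for the CTCF-bound ones, against 6.14 and 7.61, and 13.7 and 16.1, in other active genes.

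**Figure D4:**
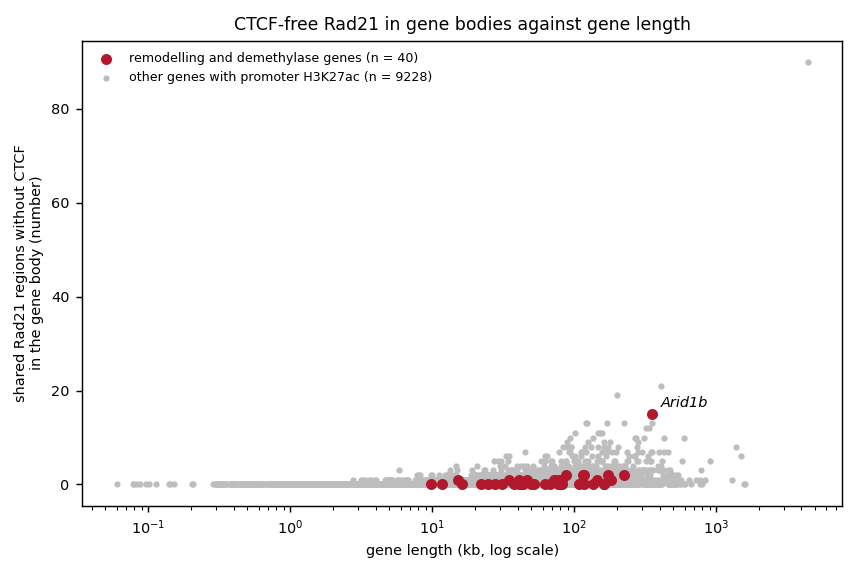
Number of shared CTCF-free Rad21 regions in the gene body (vertical axis) against gene length (horizontal axis, kb, log scale) for 40 active members (red) and 9228 other active genes (grey). Arid1b, with 15 regions, stands apart from the other members, which have 0 to 2.

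Arid1b (chromosome 17, 4994332 to 5347656) encodes the alternative large subunit of the canonical BAF form and spans 353325 bp. Its body held 28 shared Rad21 regions, of which 15 were CTCF-free, more than in all but 3 of 9268 active genes (Gm20388 with 90, Eif4e3 with 21 and Clec16a with 19). Shared H3K27ac regions spanned 95429 bp of its body (28.0%), rank 5 among active genes. Not all of that span lay under peaks of both replicates. H3K27ac peaks covered 37.2% of the gene in replicate 1 (50 peaks) and 13.8% in replicate 2 (42 peaks), so both libraries marked it but to different extents. Rad21 had 37 and 46 peaks in the gene and CTCF 16. The 15 CTCF-free regions had folds of 3.82 to 11.4 in replicate 1 and 3.73 to 12.9 in replicate 2 (medians 5.88 and 7.61), and 12 of them overlapped shared H3K27ac. The 13 CTCF-bound regions ran up to 26.8 and 37.7 (medians 12.4 and 10.4), and 5 overlapped it. Several of the 13 rested only on weak CTCF peaks, of folds 2.89 to 3.67 and with q above 0.05. The split into 15 and 13, and the values per class, thus depend on how deep the CTCF list reaches. On the map of the gene the CTCF-free regions had summits 13057 to 244772 bp from the gene start, and the CTCF-bound ones 32446 to 327434 bp.

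**Figure D5:**
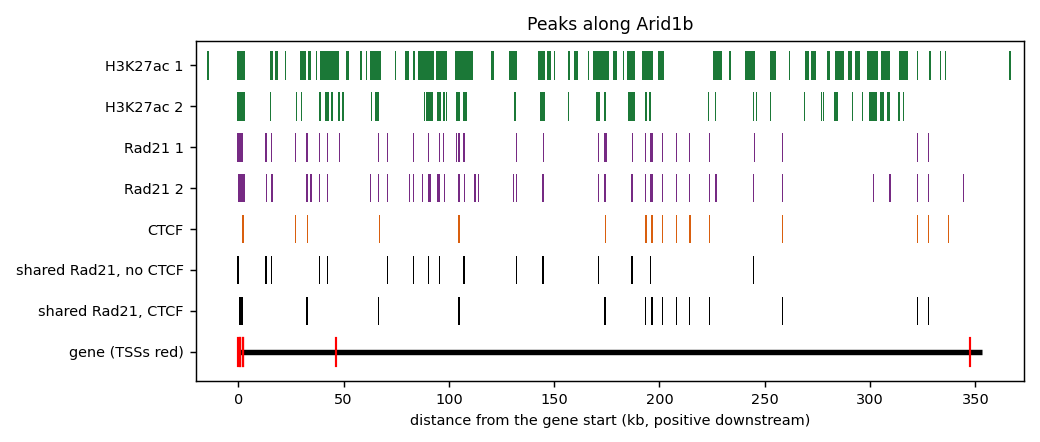
Peaks along Arid1b (horizontal axis, distance in kb from the gene start, positive downstream), with 1 track for each of the 5 lists, 1 each for shared Rad21 regions without and with CTCF, and the gene with its TSSs in red. H3K27ac covers more of the gene in replicate 1 than in replicate 2, and the 15 CTCF-free regions of the body lie mostly where both replicates have H3K27ac.

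After Arid1b, the members with most CTCF-free Rad21 in the body were Smarca4, Smarca2, Arid2, Chd2 and Chd9, with 2 regions each. In Smarca4 both lay in H3K27ac and had folds of 4.83 and 7.03, and 8.00 and 10.5. In Smarca2, whose body held no shared H3K27ac, they had 4.26 and 14.6, and 14.1 and 8.20. In Chd9 the higher one, at 12.3 and 13.4, lay at the promoter of Gm6658, a gene annotated inside Chd9. Shared H3K27ac regions, as spans of merged peaks, took up 20779 bp of the body of Arid2 (17.9%), 13005 bp of Smarca4 (15.9%) and 12096 bp of Arid1a (18.5%).

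The highest Rad21 regions inside the genes overlapped CTCF peaks. Kdm6b had folds of 39.4 and 63.2 in an exon toward its 3′ end (chromosome 11, 69214618 to 69215171, CTCF fold 12.1), where its promoter had 3.48 and 6.03. Kdm4b, without shared Rad21 at a promoter, had 5 CTCF-bound regions in its body, the highest at 52.4 and 56.2 (chromosome 17, 56496979 to 56497412, CTCF fold 11.9). Kdm2b had an intronic region of 42.0 and 43.9, Chd9 one of 34.4 and 37.4, and Chd2 one of 26.7 and 36.9. Kdm6a and Arid4a, like Kdm4b, had shared Rad21 in the body (at most 9.67 and 36.2, and 14.7 and 29.5) and not at a promoter. The body of 9 active members, Arid4b, Kdm3a, Kdm4c, Kdm4d, Kdm5a, Smarca5, Smarcal1, Smarcc2 and Smarce1, held no shared Rad21, no CTCF peak and no shared H3K27ac beyond the promoters. Kdm4d, Smarcal1 and Smarce1 had neither shared Rad21 nor CTCF anywhere in the gene or at its promoters.

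The CTCF motif, a match to the core consensus with at most 2 mismatches within 50 bp of the summit, was counted under the CTCF peaks. At promoters of active members it was found at 10 of 27 (37.0%), against 60.8% of 4810 in other active genes, where all CTCF peaks gave 72.4%. The CTCF list reaches weak peaks, and 10 of the 27 (37.0%) had a q above 0.05, against 25.4%. Among the peaks that passed that level the motif was present at 8 of 17 (47.1%), against 70.3%. In gene bodies it was at 59 of 77 (76.6%), against 77.8%. The highest promoter CTCF folds had a median of 6.33 in the 18 members, against 7.10 in 3990 other genes. Of the promoter motifs of members 6 ran in the direction of the gene and 4 in the opposite one, and of those in bodies 30 and 29. The difference at promoters rests on 27 peaks in 18 genes, of which 4 lie at Arid1a and have no motif.

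Of the CTCF-free promoter Rad21 regions of active members 3 of 33 (9.09%) held the CTCF motif, against 11.2% in other active genes. The E-box was within 100 bp of the summit of 6 (18.2%), against 14.2%, and the Ets motif of 2 (6.06%), against 12.8%. The Runx and Tcf motifs were at 1 each (3.03%), against 4.81% and 2.78%. The table of RefSeq promoters (assembly GRCm38.p6) had 40 windows for 29 of the 40 active members. These had a median GC content of 62.2% and a CpG observed-over-expected ratio of 0.820, against 61% and 0.786 in the windows of other active genes, and 52.7% and 0.384 in all windows. The Ets motif was in 12.5% of them, against 20.2% in other active genes and 8.86% in all windows. The E-box was in 15% of them, against 14.4% and 16.3%, the Runx motif in 2.5%, against 3.70% and 5.27%, and the Tcf motif in 0%, against 3.44% and 5.14%. The motifs are counted separately, so a window can count for more than one. At 33 regions a single region is a step of 3.03 percentage points.

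Partner genes of the same complexes and related families, which are not members, were counted in the same way. Of 45 measured, 39 had promoter H3K27ac (86.7%), and of these 29 (74.4%) had shared promoter Rad21, against 61% of other active genes. CTCF was at 18 (46.2%), against 43.2%, and CTCF-free promoter Rad21 at 20 (51.3%), against 38%. In the body 18 (46.2%) had Rad21, against 35.2%, and 6 (15.4%) CTCF-free Rad21, against 14.1%. The shares for promoter CTCF and CTCF-free body Rad21 thus lay near those of other active genes. Of the SWI/SNF partners Pbrm1, Brd7 and Brd9, only Brd7, a bromodomain subunit gene, had shared promoter Rad21 (5.54 and 14.3, CTCF 12.3). Of the NuRD partners Mta1, Mta2 and Mta3, only Mta2 had it (5.02 and 9.31, without CTCF). Among ISWI partners Baz1a (5.82 and 9.37), Baz1b (7.50 and 6.69) and Baz2a (33.6 and 41.0) all had it. Of Ino80, Srcap and Ep400, which encode remodelling motors of large complexes, Ino80 had 5.66 and 5.20, Ep400 12.4 and 12.3, and Srcap had neither shared promoter H3K27ac nor shared Rad21. Of the other JmjC genes Phf8 had 6.07 and 9.04, Phf2 7.01 and 9.002, and Jhdm1d 12.3 and 19.3. By complex, Rad21 was at 5 of 11 active SWI/SNF partners, 7 of 10 NuRD partners, 8 of 8 ISWI partners, 3 of 4 INO80 and SRCAP genes and 6 of 6 JmjC genes, set beside the 61% of other active genes.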

How the data were processed

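The data are 5 peak lists, 1 per ChIP-seq library, in wild type thymocytes. The labels gave each library its target and replicate number. Coordinates are mm9, the only build in the submitters' processing notes, which list MACS2 2.1.0, Bowtie 1.0.0, Bowtie2 2.3.2, Juicer 0.7.5, HiC-Pro 2.7.8 and CASAVA 1.82 and 1.84 with no roles. For the calling threshold and the control sample, the sources used here give nothing. The fold enrichment is the ratio to local background that the authors deposited for each peak. The −log10 p and −log10 q values are as deposited, and the score of the deposited lists was not used. The deposited Rad21 and CTCF lists also give the summit as a distance in bp from the peak start. The lists carry no read counts, so depth and precision are unknown.

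Only chromosomes 1 to 19 and X entered the counts, and a peak listed several times was counted once, with its highest fold. Overlap needed 1 bp. Gene models came from GENCODE vM1, whose assembly NCBIM37 is the one shown as mm9. All 20 chromosomes were read and 0 regions ran past a chromosome end. All annotated transcripts gave TSSs. A body Rad21 region or CTCF peak lies in the gene and meets none of its promoters. Body H3K27ac also counts a promoter region where it reaches over 2000 bp from each TSS into the gene. Ptcra is not classed as protein-coding in that release and entered only as a marker. Other active genes were also weighted to the members' shares in 5 length classes. The CTCF core consensus was matched within 50 bp of a summit. The scripts (Python 3.11.15, numpy 2.4.6, matplotlib 3.10.9) were tested on simulated data.

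The members, roles, partner lists and alternatives were chosen with earlier results of these data known. Genes were named by rule: the 6 highest and 4 lowest by promoter Rad21, those without promoter H3K27ac or Rad21, up to 8 by CTCF fold, the 6 with most CTCF-free body Rad21, 3 per role group and per partner complex, and sex-linked ones. Some further members were named after their values were seen. No test was run. The alternatives were other promoter widths, start sites, overlaps, thresholds, replicates left out, autosomes only, and other comparison genes. Transcripts of the protein-coding biotype, weighting by TSS number, the difference in CTCF-free promoter Rad21 and the H3K27ac widths of other genes by replicate were added after seeing the data. The counts of 1 further marker list are not reported here.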

Additional observations from a re-analysis of the deposited data

How the results depend on the processing

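Under all 13 alternatives run for each count, the number of active members (38 to 41), of members with promoter Rad21 (17 to 37), with body Rad21 (22 to 30) and with CTCF-free body Rad21 (11 to 21) stayed within 1.5 times the values reported. Promoter CTCF was at 30 members within 5000 bp of a TSS. With a −log10 q of at least 5 for Rad21 and CTCF it was at 9, CTCF-free promoter Rad21 at 12 and body CTCF at 19. Peaks of either replicate gave 32 members with CTCF-free promoter Rad21 and 32 with body H3K27ac, and promoters of 500 bp gave 38 with body H3K27ac. The median H3K27ac width was 1652 to 2560.5 bp with a replicate left out.

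The differences from other active genes, in percentage points, moved more. For promoter Rad21 (1.46) they were 3.26 within 500 bp, 5.12 within 5000 bp, 4.37 at the 5′ end only, 3.62 with an overlap of 50%, -1.05 at the higher q, 5.96 with either replicate, 4.10 on autosomes, -2.16 weighted by length, -0.35 weighted by TSS number, 3.24 with coding transcripts, 23.9 over all genes and 1.05 to 3.64 with a replicate left out. For promoter CTCF (1.76) they were, in the same settings, -0.43 within 500 bp, 17.2 within 5000 bp, 7.37 at the 5′ end, -1.98 for CTCF peaks with a −log10 q of at least 1.3, -3.39 at the higher q, -0.339 by length, -0.763 by TSS number, 3.11 with coding transcripts and 16.2 over all genes. Their signs changed, so neither difference has a stable direction. For CTCF-free promoter Rad21 (14.5, added after seeing the data) they were 8.10 within 500 bp, 10.2 with the CTCF threshold, 3.02 at the higher q, 8.68 with either replicate, 9.56 by length, 27.8 over all genes and 7.26 to 16.4 with a replicate left out. For CTCF-free body Rad21 (25.9) they were 27.2 within 500 bp, 15.6 within 5000 bp, 27.8 at the 5′ end, 23.7 with the CTCF threshold, 16.0 at the higher q, 24.7 with either replicate, 27.9 on autosomes, 13.5 by length, 28.4 over all genes, 25.1 with coding transcripts and 24.3 to 26.1 with a replicate left out. Both kept their sign in the alternatives run, and the cause of these shifts was not tested.

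No paired analysis was possible because no result comes from a test between groups. The CTCF list has 1 library and no replicate check, and whether a region counts as CTCF-free depends on how deep that list reaches. Depth is unknown, so a missing peak is not shown to be a missing mark.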
